A study of Homo sapiens with 4 samples.

Results

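Translation initiation factors (eIFs) and elongation factors (eEFs) were described here as a set of 56 genes of the 29123 gene names on a whole human genome array. The members were all genes whose array name starts with EIF or EEF. The eIF2 kinases (EIF2AK) and the eIF4E-binding proteins (EIF4EBP) were left out. This rule uses names and no measured value, but it was chosen with earlier results of these data known. They were covered by 113 probes. The cells were A2780s, an established human epithelial ovarian cancer (EOC) cell line. Total RNA of 2 GALNT3 KO clones, made with CRISPR/Cas9, and of 2 GALNT3/T6 KO clones, made by adding an shRNA against GALNT6 to GALNT3 KO clones, was hybridized against RNA of mock-transfected control (Ctrl) A2780s cells. GALNT3 and GALNT6 encode enzymes that start mucin-type O-glycosylation, and the study asked what their single and joint suppression does to gene expression. Each clone was measured on 1 array, with the KO RNA in Cy5 and the Ctrl RNA in Cy3 by the labels, without a dye swap. In values against Ctrl, a dye effect on a gene therefore cannot be told apart from an effect of the KO.

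In eukaryotic cells, initiation begins when eIF2 brings the initiator tRNA to the small ribosomal subunit together with eIF1, eIF1A, eIF3 and eIF5, while the eIF4 factors bind the mRNA cap and unwind the leader. eIF2B recharges eIF2 with GTP, eIF5B joins the subunits, and eIF6 keeps the large subunit apart until it is ready. In elongation, eEF1A delivers aminoacyl-tRNAs, the eEF1B subunits recharge it, eEF2 moves the ribosome along the mRNA, and eIF5A helps the ribosome through difficult peptide bonds. In cancer biology eIF4E is known as a limiting cap-binding protein, and EEF1A2, EIF5A2 and EIF6 have long been discussed as genes raised in ovarian and other carcinomas.

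The array reads each gene through 60-base probes, and the probes behind 6 of the results below are shown because a result can be no better than the stretch of transcript it reads. Every one is given 5′ to 3′ as the design lists it, without capitals because no part of it was singled out, and positions are those of the array design in hg19. The EIF5A2 probe (chr3:170611163-170612094, minus strand), the EEF2 probe (chr19:3976730-3977256, minus strand), the EIF3K probe (chr19:39125715-39127544, plus strand), the EIF3L probe (chr22:38274156-38282808, plus strand) and the EIF2S2 probe (chr20:32678350-32681481, minus strand) cover more genome than their own length, so they span an exon junction. The EEF1A2 probe (chr20:62120330-62120389, minus strand) lies in 1 unbroken stretch. Probes were picked for display on having at least 1 reading frame without a stop codon, so that this holds for all 6 is no result.
EIF5A2: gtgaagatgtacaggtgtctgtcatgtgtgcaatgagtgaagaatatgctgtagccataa
EEF2: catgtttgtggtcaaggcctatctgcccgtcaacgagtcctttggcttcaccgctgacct
EIF3K: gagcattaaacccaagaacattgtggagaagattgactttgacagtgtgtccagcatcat
EIF3L: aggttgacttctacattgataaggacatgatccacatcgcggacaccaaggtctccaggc
EIF2S2: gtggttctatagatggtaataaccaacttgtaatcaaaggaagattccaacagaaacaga
EEF1A2: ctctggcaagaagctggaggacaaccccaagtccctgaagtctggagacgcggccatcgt

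Between 86.9% and 93.8% of the spots were well above background in a channel, no spot was saturated, and the number of arrays limits the precision. Across genes, the 2 arrays of a group correlated at r = 0.835 (GALNT3 KO) and 0.917 (labelled GALNT3/T6 KO). The GALNT3 probe is not tied to the edited part of the gene and so checks no edit. On the GALNT3 KO arrays it was well above background neither in the KO nor in the Ctrl channel. On the other 2 arrays it was well above background in both channels. Its log2 ratios of 4.80 and 5.08 there go against their label, so these are called the labelled GALNT3/T6 KO arrays throughout. GALNT6 was lower in both groups, by 0.42 (adjusted p = 0.0447) and 0.67 (adjusted p = 0.00335). The 6 genes examined as a check of the cell line, the epithelial KRT8, KRT18 and EPCAM, the ovarian PAX8 and WT1 and the mesenchymal VIM, were all well above background on every array, the leukocyte marker PTPRC and the fibroblast collagen COL1A1 were too, and the endothelial PECAM1 was not. None of the 6 was called in GALNT3 KO, where VIM gave 1.12 (adjusted p = 0.0526). On the labelled GALNT3/T6 KO arrays, KRT18 (5.68), KRT8 (2.83), PAX8 (1.21) and WT1 (1.01) were higher, VIM was lower (-2.36) and COL1A1 was higher (1.99), and whether these differences have a part in those of the factor genes was not tested.

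All 56 factor genes passed the filter on dim probes, and the probe standing for each was well above background in both channels on all 4 arrays. Each value below is the log2 of KO over Ctrl signal, a mean is given with its standard error (SE) from limma over the 2 arrays of a group, and a gene was called where its p, adjusted by Benjamini-Hochberg over the 27223 genes tested, did not exceed 0.05. The EIF1AY values are left out because the gene is Y-linked and shares sequence with EIF1AX, although it is kept in every count. As these are bulk samples, less RNA per cell and fewer cells that express a gene cannot be told apart.

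**Figure D1:**
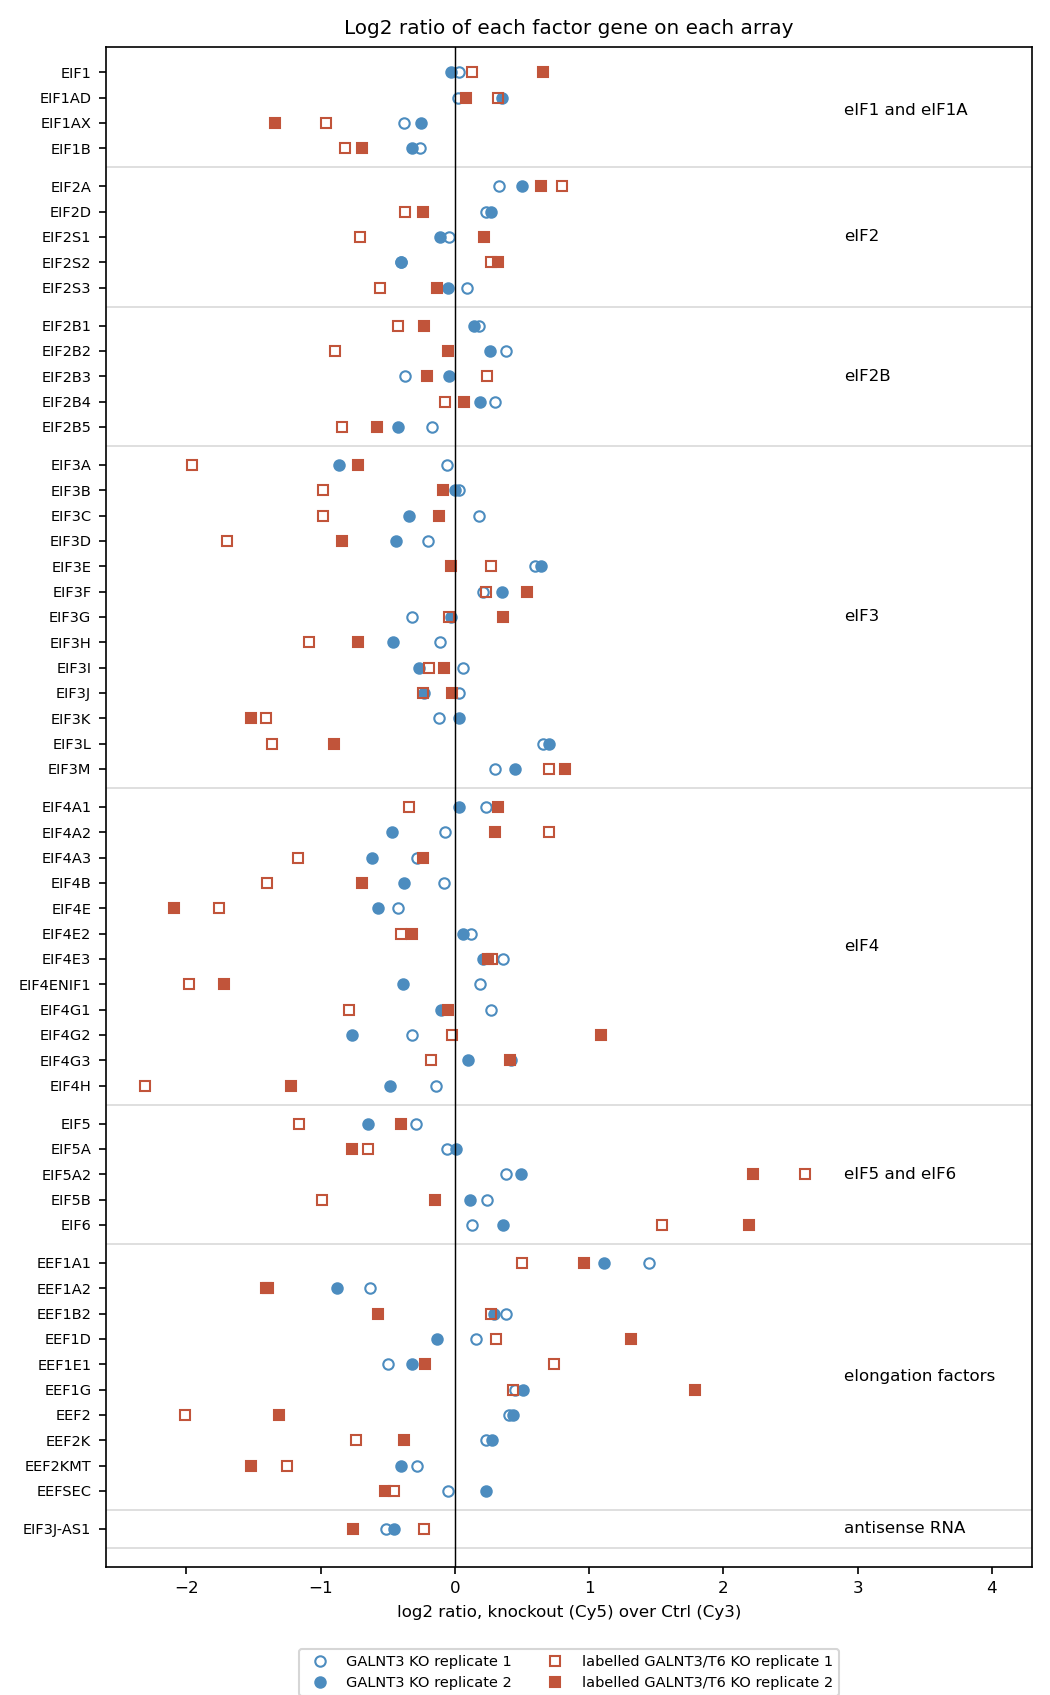
Log2 ratio of KO over Ctrl (x axis) for 55 factor genes (y axis, grouped by complex, EIF1AY left out) on the 2 GALNT3 KO arrays (circles) and the 2 arrays labelled GALNT3/T6 KO (squares), with open symbols for replicate 1. The circles stay between -0.88 and 1.45, while the squares run from -2.31 for EIF4H to 2.61 for EIF5A2.

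The factor genes fell more often than they rose on the labelled GALNT3/T6 KO arrays. Of the 56 genes, 24 (42.9%) were called lower and 9 (16.1%) higher than Ctrl, beside 23.1% and 24.8% of all genes tested. The lower genes came from every complex as grouped by gene name. For eIF2 this was EIF2D alone, which is no subunit of eIF2 itself. At the head were the cap-binding protein EIF4E (-1.93), the eIF4E transporter EIF4ENIF1 (-1.85) and the helicase cofactor EIF4H (-1.76). The translocase EEF2 (-1.66) and the eIF3 subunit EIF3K (-1.47) followed, and 12 of the 24 were at least 2-fold lower. EIF5A2 (2.42), EIF6 (1.87) and EEF1G (1.11) were the 3 genes called at least 2-fold higher. The median over the 56 genes was -0.35, beside 0.03 over all genes.

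The factor genes are bright on this array, with a median log2 signal of 14.73 against 9.73 for all genes. Among the 4576 genes whose signal lay between the quartiles of the factor genes, 37.7% were called lower and 22.3% higher and the median was -0.19. Genes this bright were thus also lower more often than the whole array, and the part of signal level in the counts above was not tested. The 2 arrays also differed. The median of the factor genes was -0.41 on replicate 1 and -0.18 on replicate 2, where 39 of the 56 genes were higher than on replicate 1. The criterion of the study was an unadjusted p of at most 0.05 and at least 1.5-fold. By it, 18 factor genes (32.1%) were lower and 7 (12.5%) higher, beside 17.2% and 14.6% of all genes. Leaving out either GALNT3 KO array, which leaves a single residual degree of freedom, left 14 genes called lower and 4 higher (4336 and 3996 of all genes), and without replicate 1 of the labelled GALNT3/T6 KO arrays the median was -0.18.

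**Figure D2:**
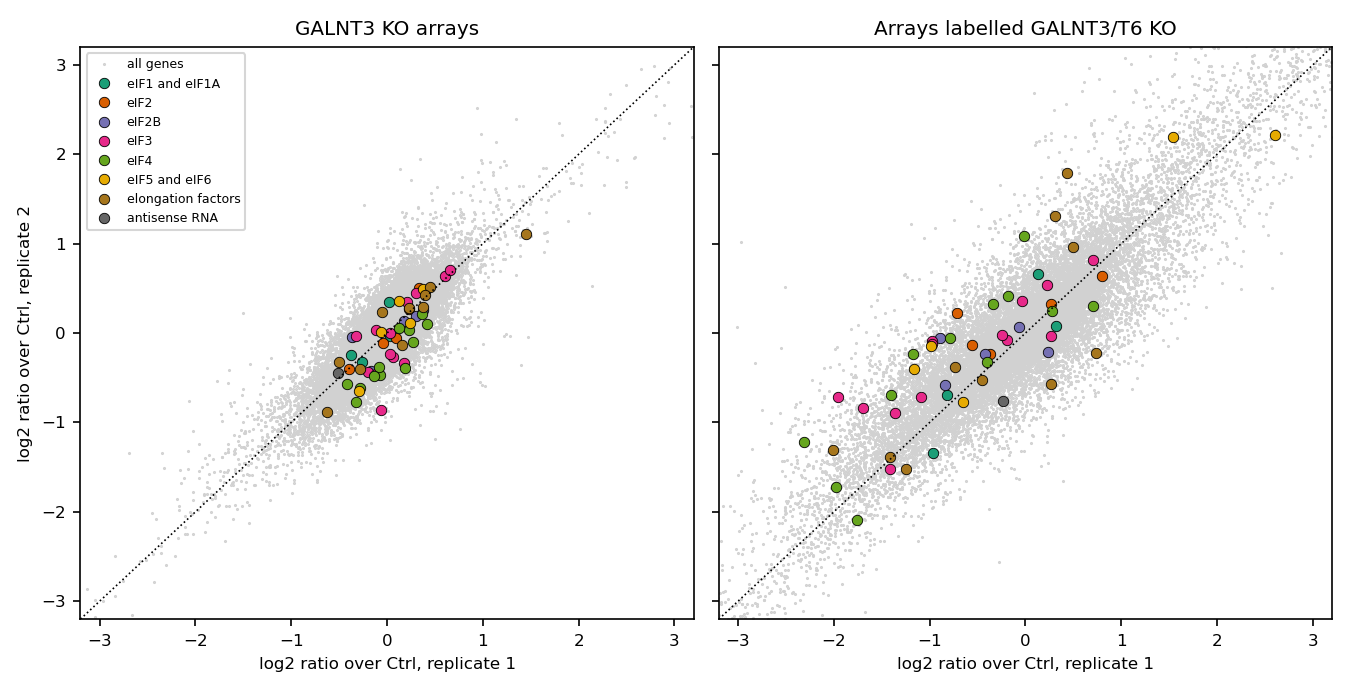
Log2 ratio over Ctrl on replicate 1 (x axis) and replicate 2 (y axis) of each group for 55 factor genes (colored by complex) and all genes tested (grey), with a dotted line where both are equal and axes cropped at 3.2. On the labelled GALNT3/T6 KO arrays most eIF3 and eIF4 genes lie above the line, lower on replicate 1 than on replicate 2.

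The factors that select the start codon showed lower values for eIF1A and mixed values for eIF2. EIF1AX, the X-linked eIF1A gene, gave -0.96 and -1.34 on the labelled GALNT3/T6 KO arrays and -0.38 and -0.25 on the GALNT3 KO arrays. Its mean was -1.15 ± 0.12 (SE, n = 2) and its adjusted p 0.00227, and the groups did not overlap. EIF1B, a close relative of EIF1, fell by 0.76 ± 0.08 (adjusted p = 0.00278), whereas EIF1 itself gave 0.39 ± 0.15 and was not called (adjusted p = 0.0831). EIF1AD, named for its eIF1A-like domain, gave 0.20 ± 0.12 (adjusted p = 0.228).

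Of the 3 subunits of eIF2, the trimer that carries the initiator tRNA, the alpha subunit EIF2S1 (-0.24 ± 0.23, adjusted p = 0.421) and the gamma subunit EIF2S3 (-0.34 ± 0.13, adjusted p = 0.0860) were not called on the labelled GALNT3/T6 KO arrays. EIF2S1 was -0.71 on replicate 1 and 0.22 on replicate 2, so its arrays did not share a sign. The beta subunit EIF2S2 was 0.27 and 0.32 there and -0.40 on each GALNT3 KO array, and it was called higher in the first group (0.30 ± 0.08, adjusted p = 0.0347) and lower in the second (-0.40 ± 0.08, adjusted p = 0.0469). Its other probe went the opposite way on the labelled GALNT3/T6 KO arrays, with -0.27 and -0.60. When every probe was tested alone, it was called lower there (mean -0.44, adjusted p = 0.0305). In GALNT3 KO it gave -0.18 and -0.08. With the mean of both probes the value of the first group was -0.07 (adjusted p = 0.500). EIF2A, an alternative initiator tRNA carrier outside the trimer, rose by 0.72 ± 0.09 (adjusted p = 0.00445) with 2 probes on the same side, but gave 0.26 (adjusted p = 0.158) with the log ratios of the scanner software. EIF2D, which acts in recycling and reinitiation, fell by 0.31 ± 0.08 (adjusted p = 0.0378).

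Among the 5 subunits of eIF2B, the exchange factor of eIF2, 2 were called lower on the labelled GALNT3/T6 KO arrays. Of all genes tested, 23.1% were called lower there. EIF2B5, the catalytic epsilon subunit, gave -0.84 and -0.58 (mean -0.71 ± 0.11, adjusted p = 0.00817), and EIF2B1, a regulatory subunit, gave -0.42 and -0.23 (mean -0.33 ± 0.09, adjusted p = 0.0394). EIF2B2 was -0.89 on replicate 1 and -0.05 on replicate 2 and was not called (adjusted p = 0.126). EIF2B3 (0.02 ± 0.15) and EIF2B4 (0.00 ± 0.09) had means near 0.

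The 13 subunits of eIF3, the scaffold of the small subunit in initiation, did not move as a block. On the labelled GALNT3/T6 KO arrays 5 were called lower and 2 higher, beside 23.1% and 24.8% of all genes tested. The means of the 13 subunits there ran from -1.47 to 0.76. EIF3K had -1.41 and -1.52 there and -0.12 and 0.03 in GALNT3 KO (mean -1.47 ± 0.09, adjusted p = 0.00049), and its other probe gave a mean of -0.95. EIF3L had -1.36 and -0.90 (mean -1.13 ± 0.13, adjusted p = 0.00317), and its other probe gave -1.10. That probe (chr22:38274137-38282789) overlaps the EIF3L probe printed above, so it is close to a repeat measurement. EIF3K and EIF3L, which are neighbours in the complex and are dispensable in some organisms, thus stood clear of 0 on every probe. EIF3D, a subunit that can itself bind the cap, gave -1.70 and -0.84 (mean -1.27 ± 0.22, adjusted p = 0.0103). EIF3H gave -1.09 and -0.72 (mean -0.90 ± 0.14, adjusted p = 0.00741). EIF3A, the largest subunit, was the least even, with -1.96 and -0.72 and, in GALNT3 KO, -0.06 and -0.86, so that its groups overlapped (mean -1.34 ± 0.35, adjusted p = 0.0332).

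In the opposite direction, EIF3M rose by 0.76 ± 0.09 (adjusted p = 0.00322), with all 3 probes above 0, and EIF3F by 0.39 ± 0.11 (adjusted p = 0.0422). The other 3 EIF3F probes had means from 0.13 to 0.28 and none was called alone, and with the mean of all 4 the value was 0.26 (adjusted p = 0.0584). The core subunits EIF3B (-0.98 and -0.09) and EIF3C (-0.98 and -0.12) were low on replicate 1 only and were not called. EIF3C reads cannot be separated from its near-identical copy EIF3CL. EIF3G (0.16 ± 0.14), EIF3I (-0.13 ± 0.11) and EIF3J (-0.13 ± 0.11) differed from Ctrl by little more than their errors. EIF3E gave 0.12 ± 0.10 with the brightest of its 3 probes, which did not share a sign. When every probe was tested alone, its others gave -0.73 (adjusted p = 0.00753) and -0.55 (adjusted p = 0.0602). The median of the 13 subunits was -0.98 on replicate 1 and -0.09 on replicate 2.

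Of the 12 genes named EIF4, 5 were called lower and 1 higher on the labelled GALNT3/T6 KO arrays. Over all genes tested the shares there were 23.1% and 24.8%. EIF4E, the cap-binding protein, gave -1.76 and -2.09, and -0.42 and -0.57 in GALNT3 KO. The mean of -1.93 ± 0.11 corresponded to a 3.80-fold lower level (adjusted p = 0.000475). Its log2 signal was 12.52 and 12.13 in the KO channel and 14.28 and 14.22 in the Ctrl channel of the same arrays. Of its 5 probes, 4 were lower, with means from -1.97 to -0.73, and the dimmest, which lies far upstream of the others, was not (0.30, adjusted p = 0.0569 when every probe was tested alone), and the mean of all 5 was -1.19. The homologs of EIF4E did not share this size of change. EIF4E2, a cap-binding repressor, gave -0.40 and -0.32 (mean -0.36 ± 0.08, adjusted p = 0.0220), and EIF4E3 gave 0.28 and 0.25 (mean 0.26 ± 0.09, adjusted p = 0.0594).

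EIF4ENIF1, which carries eIF4E into the nucleus and to processing bodies, gave -1.98 and -1.72 (mean -1.85 ± 0.17, adjusted p = 0.00144). EIF4H and EIF4B are cofactors of the eIF4A helicase. EIF4H had -2.31 and -1.22 (mean -1.76 ± 0.28, adjusted p = 0.00759), and its 3 probes gave means from -1.83 to -1.30. EIF4B had -1.40 and -0.69 (mean -1.04 ± 0.19, adjusted p = 0.0125), and its 6 probes were all below 0, from -1.13 to -0.21. Among the helicases themselves, EIF4A1 gave -0.34 and 0.32 (mean -0.01 ± 0.18, adjusted p = 0.965), and EIF4A2 gave 0.70 and 0.30 (mean 0.50 ± 0.15, adjusted p = 0.0494), close to the threshold. EIF4A3, the helicase of the exon junction complex, gave -1.17 and -0.24 and was not called (adjusted p = 0.0678).

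None of the scaffold genes was called. EIF4G1, the main scaffold of the cap complex, gave -0.79 and -0.05 (mean -0.42 ± 0.21, adjusted p = 0.158), and its homolog EIF4G3 gave -0.18 and 0.41 (mean 0.12 ± 0.17, adjusted p = 0.598). EIF4G2, a scaffold without a cap-protein binding site, was -0.02 on replicate 1 and 1.09 on replicate 2 (adjusted p = 0.183). In all 3 the 2 arrays lay further apart than the mean lay from 0.

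The eIF5 and eIF6 genes held the highest values of the whole set. EIF5A2, the second eIF5A gene, gave 2.61 and 2.22 on the labelled GALNT3/T6 KO arrays and 0.38 and 0.49 on the GALNT3 KO arrays. Its mean of 2.42 ± 0.12 was a 5.33-fold higher level (adjusted p = 0.000308). The log2 signal of this probe was 13.37 and 12.92 in the KO channel while in the Ctrl channel it did not exceed 10.93 on any of the 4 arrays. The other EIF5A2 probe, at chr3:170606916-170606975 and 4187 bases further downstream, gave 0.05 and -0.49 (mean -0.22, adjusted p = 0.269 when every probe was tested alone). With the mean of both probes EIF5A2 was 1.1. The increase was measured by the exon-spanning probe printed above and not by the downstream one. EIF5A, the ubiquitous gene, gave -0.65 and -0.77 (mean -0.71 ± 0.08, adjusted p = 0.00326), and its other probe gave -0.64 on each array.

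EIF6, the factor that holds the large ribosomal subunit apart, gave 1.54 and 2.19 on the labelled GALNT3/T6 KO arrays and 0.13 and 0.36 in GALNT3 KO. The mean was 1.87 ± 0.18, a 3.64-fold higher level (adjusted p = 0.00172), from 1 probe. EIF5, the GTPase activator of eIF2, fell by 0.78 ± 0.21 (adjusted p = 0.0354), though its arrays (-1.16 and -0.40) overlapped those of GALNT3 KO (-0.29 and -0.65). EIF5B, the subunit-joining GTPase, gave -0.99 and -0.15 and was not called (adjusted p = 0.0830).

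In elongation, 5 of 10 genes were called lower and 2 higher on the labelled GALNT3/T6 KO arrays, beside 23.1% and 24.8% of all genes. EEF2, the translocase, gave -2.01 and -1.31 there against 0.40 and 0.43 in GALNT3 KO. Its mean was -1.66 ± 0.18, a 3.17-fold lower level (adjusted p = 0.00251). EEF2K, the kinase that inhibits eEF2, gave -0.74 and -0.38 (mean -0.56 ± 0.11, adjusted p = 0.0169), and EEF2KMT, a lysine methyltransferase of eEF2, gave -1.25 and -1.52 (mean -1.39 ± 0.10, adjusted p = 0.000863). EEF2KMT belongs to a family with closely similar copies, so its probe may read more than 1 gene. EEF2, EEF2K and EEF2KMT were thus each lower on both of these arrays.

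EEF1A2, the eEF1A gene of muscle and neurons that many tumors express, gave -1.41 and -1.39 on the labelled GALNT3/T6 KO arrays and -0.63 and -0.88 in GALNT3 KO. It was called lower in both groups, by 1.40 ± 0.10 (adjusted p = 0.000702) and 0.76 ± 0.10 (adjusted p = 0.0268). EEF1A1, the ubiquitous gene, had the opposite sign, with 0.50 and 0.96 (mean 0.73 ± 0.15, adjusted p = 0.0183) and, in GALNT3 KO, 1.45 and 1.11 (mean 1.28 ± 0.15, adjusted p = 0.0251). This call rested on the brightest of 4 EEF1A1 probes. The other 3 had means from -0.14 to 0.14 on the labelled GALNT3/T6 KO arrays and from 0.19 to 0.28 in GALNT3 KO, and EEF1A1 has many processed copies in the genome that a probe may share. With the mean of its probes EEF1A1 was called in neither group.

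Of the eEF1B subunits, EEF1G gave 0.43 and 1.79 (mean 1.11 ± 0.32, adjusted p = 0.0448), with means of its 3 probes from 0.95 to 1.11. EEF1D gave 0.31 and 1.31 and was not called (adjusted p = 0.0539), and EEF1B2 gave 0.27 and -0.57 (adjusted p = 0.575). EEF1E1, a small member of the tRNA synthetase complex, gave 0.74 and -0.22 (adjusted p = 0.407). In each of these 4 genes the replicates lay further apart than the mean lay from 0. EEFSEC, the elongation factor for selenocysteine, gave -0.45 and -0.52 (mean -0.49 ± 0.10, adjusted p = 0.0176), but -0.14 (adjusted p = 0.465) with the log ratios of the scanner software. The antisense RNA EIF3J-AS1, which is no translation factor but has a member's name, gave -0.23 and -0.76 (mean -0.49 ± 0.15, adjusted p = 0.0470).

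In GALNT3 KO few factor genes differed from Ctrl. Of 56 genes 3 (5.36%) were called higher and 2 (3.57%) lower, beside 4.69% and 6.35% of all genes tested, shares that lie near each other. The 3 higher genes were EEF1A1, EIF3L (0.66 and 0.70, mean 0.68 ± 0.13, adjusted p = 0.0461) and EIF3E (0.60 and 0.64, mean 0.62 ± 0.10, adjusted p = 0.0382). EIF3L was also higher with its other, overlapping probe (0.76), while the 3 EIF3E probes ranged from -0.19 to 0.62. The 2 lower genes were EEF1A2 and EIF2S2. The median of the factor genes was -0.01, beside 0.02 over all genes.

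By the criterion of the study 3 genes (5.36%) were higher and 1 (1.79%) lower in GALNT3 KO, beside 3.23% and 6.37% of all genes. The split was 3 higher and 2 lower after loess and 2 and 5 after median centring of the same background-corrected values. With the log ratios of the scanner software, which differ in background correction as well as in dye normalization, it was 0 and 1, and calls over all genes fell to 194 higher and 386 lower from 1277 and 1728. Leaving out either GALNT3 KO array left no factor gene called by limma in either direction, with 2 to 4 genes a direction at an unadjusted p of at most 0.05, and no gene of the whole array was called either. Leaving out either labelled GALNT3/T6 KO array, whose spread enters the same fit, gave 10 higher and 12 lower factor genes, and 4590 and 4867 of all genes.

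**Figure D3:**
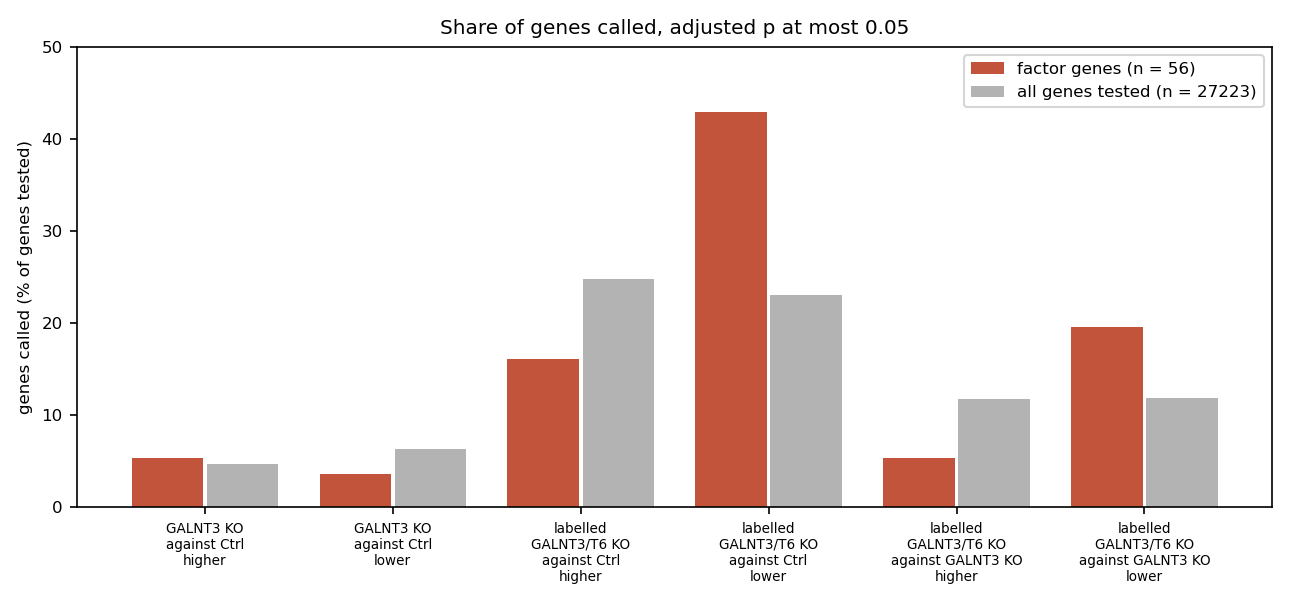
Share of the 56 factor genes (red bars) and of all 27223 genes tested (grey bars) called at an adjusted p of at most 0.05 in each comparison and direction (y axis, percent of genes tested, from 0). The 2 bars lie furthest apart for lower calls on the labelled GALNT3/T6 KO arrays, at 42.9% beside 23.1%, and the red bar is the shorter one for higher calls on the same arrays, at 16.1% beside 24.8%.

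Set against GALNT3 KO, the labelled GALNT3/T6 KO arrays had 11 factor genes (19.6%) called lower and 3 (5.36%) higher, beside 11.9% and 11.8% of all genes. EEF2 had the largest difference among the called genes (-2.08 ± 0.25, 4.23-fold, adjusted p = 0.00675). It was followed on the lower side by EIF3L (-1.81 ± 0.19, adjusted p = 0.00419), EIF4ENIF1 (-1.75 ± 0.23, adjusted p = 0.00858), EIF4E (-1.43 ± 0.16, adjusted p = 0.00546), EIF3K (-1.43 ± 0.13, adjusted p = 0.00274), EEF2KMT (-1.04 ± 0.15, adjusted p = 0.00995), EIF1AX, EEF2K, EIF5A, EEF1A2 and EIF2D. The 3 higher genes were EIF5A2 (1.98 ± 0.17, adjusted p = 0.00261), EIF6 (1.62 ± 0.25, adjusted p = 0.0127) and EIF2S2 (0.70 ± 0.11, adjusted p = 0.0139). EIF4H had a large difference that was not called (-1.45 ± 0.39, adjusted p = 0.0614). When every probe was tested alone in limma, its others gave -1.15 (adjusted p = 0.0154) and -0.91 (adjusted p = 0.0131). The median difference was -0.43, beside 0.00 over all genes.

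EIF3L and EIF2S2 were the 2 genes called in both groups in opposite directions, and EEF1A1 and EEF1A2 the 2 called in both in the same direction. For EIF2S2 and EEF1A1 this held with the brightest probe only. For EEF1A1 and EEF1A2, a dye effect shared by all arrays cannot be told apart from a KO effect. Both groups were measured against Ctrl, and whether the same Ctrl RNA served every array is not stated, so their values are only set side by side. The ranges of the groups did not overlap in 39 of 56 factor genes (69.6%), beside 60.9% of all genes. By the criterion of the study 15 genes (26.8%) were lower and 5 (8.93%) higher, beside 13.7% and 13.2% of all genes. Without GALNT3 KO replicate 1 no difference was called by limma, with 12 genes lower and 4 higher at an unadjusted p of at most 0.05, and without GALNT3 KO replicate 2 only 1 lower call, EIF4ENIF1, was left. Without replicate 2 of the labelled GALNT3/T6 KO arrays the median difference of the factor genes was -0.54, and without replicate 1 it was -0.22.

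Several probes passed the filter for 30 of the factor genes, which allows a check within a gene. Where probes overlap, as in EIF3L and EIF1, this is close to a repeat measurement. On the labelled GALNT3/T6 KO arrays all probes lay on the same side of 0 in 22 of the 30, and in 16 of the 20 that were called. The 4 called genes whose probes did not share a sign were EIF4E, EIF5A2, EIF2S2 and EEF1A1. The other 13 called genes, EEF2, EIF6, EIF4ENIF1 and EEF1A2 among them, had a single probe that passed. Of the 33 called genes, 7 (EIF1AY, EIF2B1, EIF2D, EIF2S2, EIF3F, EIF4A2 and EIF3J-AS1) were called under at most 8 of 16 other settings. In GALNT3 KO, where most values were small, the probes shared a sign in 13 of the 30. EIF1AX was an example of a gene whose probes ran together in one group and apart in the other, with means from -1.37 to -0.87 on the labelled GALNT3/T6 KO arrays and from -0.61 to 0.81 in GALNT3 KO. Its outermost GALNT3 KO probes were both called when every probe was tested alone (adjusted p = 0.0325 and 0.0431), in opposite directions. EEF2K was another: both of its probes were lower on the labelled GALNT3/T6 KO arrays (-0.56 and -0.68), but in GALNT3 KO they gave 0.26 and -0.57, so that the difference between the groups was -0.81 with the brighter probe and -0.11 (adjusted p = 0.678) with the other.

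**Figure D4:**
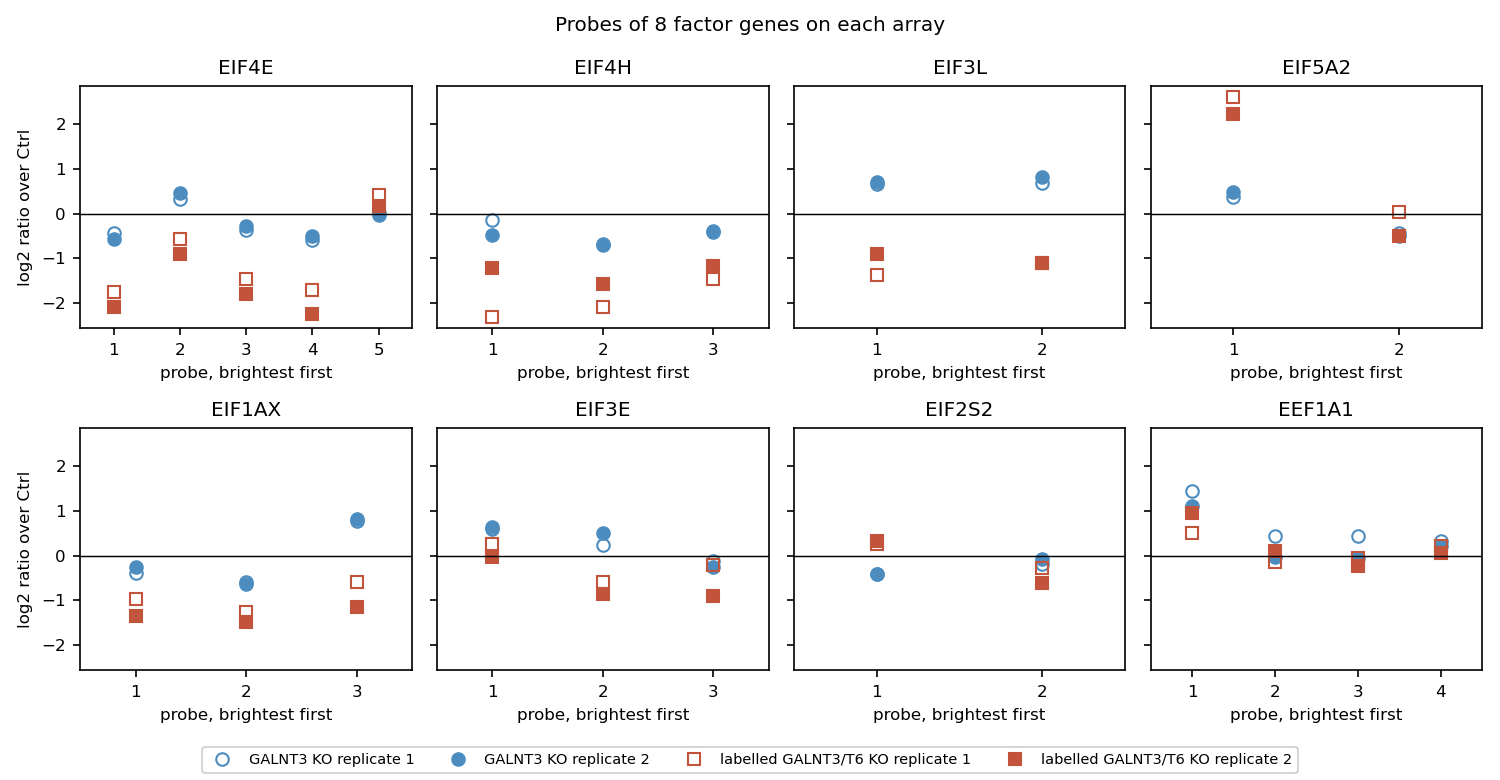
Log2 ratio over Ctrl (y axis) of every probe that passed the filter for 8 factor genes (x axis, brightest probe first), on the 2 GALNT3 KO arrays (circles) and the 2 arrays labelled GALNT3/T6 KO (squares), with open symbols for replicate 1. EIF4H and EIF3L lie below 0 with every probe on the labelled GALNT3/T6 KO arrays, while EIF5A2 (2.42 and -0.22) and EEF1A1 do not. The EIF3L probes overlap each other.

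By position, the 3 factor genes on chromosome 22 (EIF3D, EIF3L and EIF4ENIF1) were all lower on the labelled GALNT3/T6 KO arrays, with means from -1.85 to -1.13, and 39.7% of all 637 genes tested on that chromosome were called lower. Of the 5 on chromosome 11 (EEF1G, EIF1AD, EIF3F, EIF3M, EIF4G2), 3 were called higher and none lower, where 37.5% of all 1485 genes were called higher. Chromosome 20 held EIF6 (1.87) and EIF2S2 (0.30) as well as EEF1A2 (-1.40), with 30.8% of all genes higher and 12.9% lower. On chromosome 19 lay EEF2 (-1.66), EIF3K (-1.47) and EIF3G (0.16), with 33.8% of all 1608 genes lower and 16.8% higher. The part of chromosome-wide shifts in these values was not tested.

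A list of 61 other translation genes, of which 58 were tested, gave 13 higher (22.4%) and 18 lower (31.0%) calls on the labelled GALNT3/T6 KO arrays, beside 24.8% and 23.1% of all genes, with a median of -0.11 beside 0.03. In GALNT3 KO 4 were higher and 4 lower (6.90% each), beside 4.69% and 6.35% of all genes. Among regulators of eIF4E, EIF4EBP2, which blocks eIF4E, was lower on all 4 arrays (-0.80, -1.11, -2.36 and -1.95), while EIF4EBP1 was higher on the labelled GALNT3/T6 KO arrays (0.84, adjusted p = 0.00203). MKNK2, an eIF4E kinase, was lower there (-1.22, adjusted p = 0.00523) and RHEB, the activator of mTOR, was higher (1.98, adjusted p = 0.000932). PAIP1, an activator that binds poly(A)-binding protein, was higher (0.99) and its inhibitory relative PAIP2 lower (-0.69).

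Around eIF2, the PERK kinase gene EIF2AK3 (1.53, adjusted p = 0.00517), the phosphatase subunit PPP1R15A (1.41, adjusted p = 0.000472) and the stress factor DDIT3 (2.64, adjusted p = 0.00063) were higher on the labelled GALNT3/T6 KO arrays, and ATF4 was lower (-1.39, adjusted p = 0.0123). Of the 6 release and recycling genes 4 were lower there (66.7%), ABCE1 (-1.16) and GSPT1 (-1.30) among them, and 1 was higher (16.7%; PELO, 0.36). Among the 7 tested genes listed for the modification of eIF5A and eEF2, 1 was higher (14.3%; DPH3, 1.14, adjusted p = 0.00978). The 1 lower gene (14.3%) was DHPS, the first enzyme of the hypusine modification that eIF5A needs (-1.31, adjusted p = 0.00246). Of the 9 mitochondrial factors 2 were higher (22.2%) and 4 lower (44.4%), beside the shares of 24.8% and 23.1% over all genes. In GALNT3 KO the 8 called genes were EIF2AK1 (0.66), DPH6 (2.02), MTRF1L (0.49) and TPT1 (0.80) on the higher side, and EIF4EBP2 (-0.95), DENR (-0.68), GFM1 (-0.68) and MTRF1 (-0.53) on the lower.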

How the data were processed

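Spot intensities of 4 two-color arrays were deposited as scanner output. The authors made them with Agilent Feature Extraction (version 8.5.1.1 in the submitters' processing notes, 10.7.3.1 in the file headers). The deposited value table holds the log10 ratios of the same files, rounded (median of each array between 0.00 and 0.0046), and was an alternative only. Direction follows the dyes in the labels (Cy5 KO, Cy3 Ctrl). The methods also mention reverse-color labeling, without saying which arrays.

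From the intensities, background was corrected (normexp, offset 50) and dyes were normalized by within-array loess. Outlier spots were left out and control spots had weight 0. The brightest probe well above background in a channel on both arrays of a group stood for a gene (27223 genes). limma 3.58.1 in R 4.3.3 fitted a mean per group over all 4 arrays. Ratios were tested against 0. Each array carried a different KO clone, treated in the methods as a biological replicate. Whether the Ctrl RNA was the same on all arrays is not stated, and if it was, the tests leave out its spread. All arrays lay on 1 slide, so no batch could be tested. The fit was tested on simulated data.

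Members and lists were chosen with earlier results of these data known. Named were the called genes, core eIF2 subunits and paralog pairs, and the rest by counts and ranges. The fit of single probes was added after seeing the data.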

Additional observations from a re-analysis of the deposited data

Results flagged for a closer look

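The difference between the 2 groups' effects passed an adjusted p of at most 0.05 in limma for 14 factor genes. On the log2 scale, labelled GALNT3/T6 KO arrays minus GALNT3 KO, it was -2.08 for EEF2, -1.81 for EIF3L, -1.75 for EIF4ENIF1, -1.43 for EIF4E, -1.43 for EIF3K, -1.04 for EEF2KMT, -0.84 for EIF1AX, -0.81 for EEF2K, -0.68 for EIF5A, -0.64 for EEF1A2 and -0.56 for EIF2D. It was 0.70 for EIF2S2, 1.62 for EIF6 and 1.98 for EIF5A2. For EIF5A2 the downstream probe did not share the difference (0.25, adjusted p = 0.492), and neither did the other probes of EIF2S2 (-0.30, adjusted p = 0.258) and EEF2K (-0.11, adjusted p = 0.678) and the dimmest of the 5 EIF4E probes (0.31, adjusted p = 0.182). With 2 arrays a group, no test for a single array far from the others was possible.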

How the results depend on the processing

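Counts of factor genes called lower and higher on the labelled GALNT3/T6 KO arrays (24 and 9) were 14 and 4 with the spread taken from the group's own arrays and 0 and 0 with a plain t-test (named in the methods for other assays only) after Benjamini-Hochberg (4 and 3 at an unadjusted p of at most 0.05). In GALNT3 KO (2 lower, 3 higher) the lower count was 5 with median centring, 1 with the Agilent log ratio, 1 with the deposited value table, 1 with the mean of all probes, 4 with array weights, 12 with the group's own spread, 0 with the t-test and 1 by the study's criterion. The higher count was 0 with the Agilent log ratio, 0 with the value table, 1 with the mean of all probes, 6 with array weights, 10 with the group's own spread and 0 with the t-test (2 lower and 5 higher unadjusted). For the difference (11 lower, 3 higher) the t-test gave 0 and 0 (13 and 3 unadjusted) and the study's criterion 5 higher. Leaving out 1 array at a time gave 14 to 30 lower and 4 to 10 higher on the labelled GALNT3/T6 KO arrays, 0 to 12 lower and 0 to 10 higher in GALNT3 KO, and 0 to 30 lower and 0 to 7 higher for the difference. The same leave-one-out runs gave medians of the factor genes from -0.41 to -0.18, from -0.03 to 0.03 and from -0.54 to -0.22 in this order. With median centring the median was -0.46 on the labelled GALNT3/T6 KO arrays and -0.06 in GALNT3 KO, and with the Agilent log ratio and the value table it was -0.50 on the former. Calls over all genes also moved with the setting. With the group's own spread they were 4336 lower and 3996 higher on the labelled GALNT3/T6 KO arrays. In GALNT3 KO they were 4867 and 4590. EIF2S2 turned to -0.07 on the labelled GALNT3/T6 KO arrays with the mean of both probes. Deviations of same-numbered clones from their group means correlated at r = -0.239 across genes. With 2 arrays a group, crossing the numbers only reverses this sign, so whether the arrays are paired cannot be told. A replicate block gave 0 lower and 0 higher calls in GALNT3 KO (5 and 6 unadjusted), 17 and 7 on the labelled GALNT3/T6 KO arrays and 6 and 3 for the difference. With crossed numbers, chosen after seeing the data, the counts were 1 and 3, 28 and 9, and 18 and 4. Over all genes the replicate block called 52 lower and 30 higher, 5140 and 4955, and 2212 and 2534 in the same order. With crossed numbers the calls over all genes were 2260 and 1493, 6647 and 6918, and 3785 and 3542. The cause of these changes was not tested, beyond the fewer arrays and residual degrees of freedom that some settings leave. The probe standing for each factor gene was well above background, though EEF1A2 had KO log2 signals of 7.95 and 8.05 on the labelled GALNT3/T6 KO arrays. The part of signal level in these changes was not tested, and each group had only 2 arrays.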
